A study of Mus musculus with 6 samples.

Results

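The secreted defence products of Paneth cells were followed as 8 genes, Lyz1, Defa17, Defa24, Defa26, Ang4, Mmp7, Itln1 and Clps. They were picked by symbol, 8 of the 32285 genes counted, and each symbol was found once in all 6 libraries of cells from mouse small intestinal organoids. The organoids were grown from the duodenum of adult mice and collected at day 3. Wild-type (WT) organoids received the vehicle DMSO (-EIPA, n = 2 libraries) or 5 µM EIPA (+EIPA, n = 2), an amiloride derivative that inhibits Na+/H+ exchange. The other 2 libraries, with no replicate, came from organoids of an inducible CRISPR-Cas9 genotype, kept without (-Dox) or with 2 µg/mL doxycycline (+Dox), which switches on Cas9 joined to EGFP. These were made from WT organoids by lentiviral infection, puromycin selection and growth of single clones, and both CRISPR libraries carry the construct. The sort took live cells in each case, and for +Dox live cells that were also GFP-positive, so the gate and the edit cannot be told apart in that pair.

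Paneth cells sit at the base of the small intestinal crypt between the stem cells and release granules of antimicrobial proteins into the lumen. Alpha-defensins, called cryptdins in mice, are short cationic peptides that permeabilize bacterial membranes. They are made as inactive precursors, which in mice are cut to the active form by the metalloproteinase matrilysin, the product of Mmp7. Lyz1 encodes the Paneth form of lysozyme, which cleaves bacterial cell wall peptidoglycan. Ang4 is an angiogenin-family ribonuclease with antimicrobial activity, Itln1 (intelectin 1) a lectin that binds microbial sugars, and Clps encodes colipase, the cofactor of pancreatic lipase. Goblet cells, the mucus-secreting sister lineage, share much of the secretory programme.

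Of the 8 genes, 3 belong to the alpha-defensin cluster of chromosome 8 and differ little in sequence, which bears on how reads are assigned to them. In mm10, Defa24 lies at chr8:21734494-21735471 (+), Defa17 at chr8:21655780-21656735 (+) and Defa26 at chr8:21618183-21618972 (+), among 29 alpha-defensin genes in 791.8 kb. The coding sequences, from the GENCODE annotation of that build, are shown in full, with capitals at the 31 positions where the 3 are not all the same.
Defa24: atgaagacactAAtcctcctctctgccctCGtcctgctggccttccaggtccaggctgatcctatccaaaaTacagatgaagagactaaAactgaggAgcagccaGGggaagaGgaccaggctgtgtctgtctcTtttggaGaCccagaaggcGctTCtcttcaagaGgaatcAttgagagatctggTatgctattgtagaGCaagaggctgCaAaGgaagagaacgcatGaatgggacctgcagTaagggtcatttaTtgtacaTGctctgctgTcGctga
Defa17: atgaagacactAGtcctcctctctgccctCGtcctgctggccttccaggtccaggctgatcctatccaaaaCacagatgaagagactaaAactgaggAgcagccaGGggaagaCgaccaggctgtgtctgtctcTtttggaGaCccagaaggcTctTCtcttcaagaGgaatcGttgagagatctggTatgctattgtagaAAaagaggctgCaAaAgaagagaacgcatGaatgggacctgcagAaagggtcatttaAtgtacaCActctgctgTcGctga
Defa26: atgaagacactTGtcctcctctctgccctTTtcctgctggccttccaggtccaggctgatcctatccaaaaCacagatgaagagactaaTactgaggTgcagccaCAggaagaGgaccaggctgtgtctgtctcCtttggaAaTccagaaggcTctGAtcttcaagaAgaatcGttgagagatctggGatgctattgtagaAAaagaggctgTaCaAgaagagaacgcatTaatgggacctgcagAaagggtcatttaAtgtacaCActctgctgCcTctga
Defa24 and Defa17 matched at 95.7% of their 282 coding bases, Defa17 and Defa26 at 92.9%, and Defa24 and Defa26 at 89.4%. The reads came from the 3' end, so sharing was counted there, as the share of 91-base windows in the last 300 bases of the transcript that another gene also held. It was 86.7% for Defa17, all with Defa3, 5.71% for Defa26, with Gm15292, 6.67% for Lyz1, with Lyz2, and 0% for the other 5 genes. Defa17 values are therefore uncertain against Defa3. Lyz1 lies at chr10:117287797-117292868 (-), Ang4 at chr14:51763878-51773590 (-), Mmp7 at chr9:7692090-7699585 (+), Itln1 at chr1:171518122-171535294 (-) and Clps at chr17:28558149-28560766 (-). Levels were not divided by gene length, so sizes are compared between cells and libraries and not between genes.

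After limits on genes and mitochondrial counts, 87954 cells were kept, 12083 to 18211 per library, with median depths of 11477.5 to 17020 unique molecular identifiers (UMIs), each counting 1 captured transcript. Pairs of libraries shared 71 to 143 barcodes. Levels are given as CPM, the UMIs of a gene scaled to the UMIs of all genes in the same cells and library. The epithelial marker Epcam was at 1492 to 1995 CPM, the leukocyte marker Ptprc at 0.418 CPM or less and the fibroblast marker Col1a1 at 0.0186 CPM or less. Summed over all cells kept, the 8 immune markers reached 1.26 CPM at most. The 7 stromal markers summed to 6.67 to 13.2 CPM in the WT libraries and to 0.413 and 0.714 CPM in -Dox and +Dox.

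Cells were clustered with the 8 genes and all alpha-defensins held out of the variable genes. Their UMIs still counted in each cell's total, which scales the other genes. Their levels were thus not wholly kept out of the clustering. Of the 26 clusters, 5 and 23 took the name Paneth-like from the markers, 10 and 21 the name goblet-like. These names rest on each cluster's leading genes, in part on other alpha-defensins. The summed Paneth markers go against the Paneth-like name, whereas the summed goblet markers go with the goblet-like name. The 22 goblet markers summed to 71076 to 98859 CPM in goblet-like and to 18504 to 30494 CPM in Paneth-like cells. The 23 Paneth markers measured, none of them a member, summed to 2053 to 13384 CPM in Paneth-like and to 3793 to 18244 CPM in goblet-like cells, and were higher in goblet-like cells in each of the 6 libraries. The 20 proliferation markers summed to 1405 to 2053 CPM in Paneth-like and to 485 to 1094 CPM in goblet-like cells. Over all cells kept that sum was 1519 to 2075 CPM. The 16 intestinal stem cell (ISC) markers summed to 2199 to 3733 CPM in Paneth-like and to 1066 to 1810 CPM in goblet-like cells. In ISC-like cells they summed to 6027 to 10319 CPM. What these sums reflect was not tested. The names are kept below only as labels for clusters 5 and 23 and for clusters 10 and 21. Cluster 5 (5841 cells) was led by Defa22, Rnase1 and AY761184 but also by the goblet genes Tff3 and Ccl9, and 27.6% of its cells were called doublets. Cluster 23 (264 cells) was led by Mptx2, a Paneth pentraxin, at 3796 to 6487 CPM, against at most 33.3 CPM in cluster 5 and 80.5 CPM in cluster 10. Cluster 10 (3839 cells, 6.9% doublets) carried goblet genes (Spink4, Muc2, Ccl6) and Paneth genes (Defa30, AY761184, Defa3) among its leading genes, whereas cluster 21 (608 cells) was a Zg16 and Clca1 goblet cluster.

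The 8 genes did not follow the names. Goblet-like cells held more of every one than Paneth-like cells, in 6 of 6 libraries for each gene, and the median ratio ran from 2.53 for Lyz1 to 4.47 for Ang4. Defa24, the most counted of the 8, stood in Paneth-like cells at 15411 and 27607 CPM in -EIPA, 26863 and 53781 in +EIPA, 17251 in -Dox and 43466 in +Dox. In goblet-like cells it stood at 78966 and 79179, 87398 and 111987, 48648 and 85821 CPM in the same order. Each library was thus higher in goblet-like cells. With called doublets removed Defa24 ran from 15666 to 72362 CPM in Paneth-like and from 55396 to 123720 CPM in goblet-like cells. The split lay in cluster 10, where Defa24 ran from 54156 to 130315 CPM, against 11735 to 50154 in cluster 5 and 3658 to 33742 in cluster 21. In cluster 23, the Mptx2-high cells, it ran from 92648 to 132163 CPM, and the median ratio of cluster 23 to cluster 10 was between 1.04 and 1.43 over the 8 genes. Clusters 23 and 10 were therefore the high cells for these products, and cluster 5, which supplied most cells of the Paneth-like name, held a low to middle level.

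This order depended on the genes used to cluster. With alpha-defensins allowed, a Paneth-like class of 2057 cells formed, of which 974 came from cluster 10, 835 from cluster 5 and 89 from cluster 23. Of the 264 cells of cluster 23, the Mptx2-high cells, 174 went to the goblet-like class in this setting. In that Paneth-like class all 8 genes stood above the goblet-like cells in 6 of 6 libraries, with median ratios from 2.11 to 4.88. That reading uses genes close to the members to build the class, and it is given as a description.

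**Figure D1:**
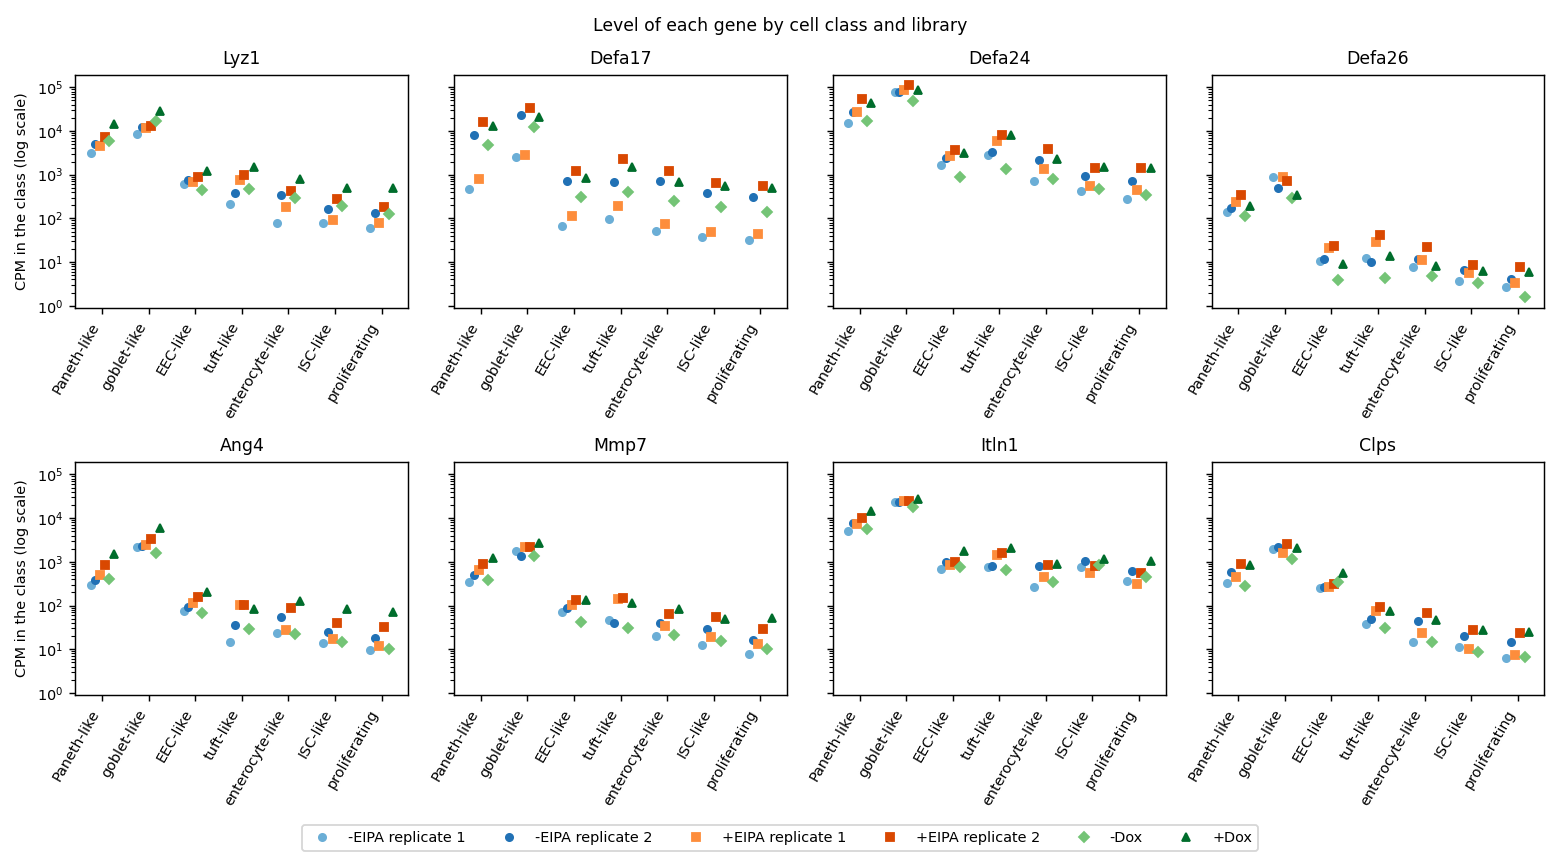
Level of each of the 8 genes (CPM, log axis) in the cell classes, with 1 point per library for the 6 libraries. Goblet-like cells stand above Paneth-like cells for each gene in every library, and Paneth-like cells above the other classes in the same library except for Clps in -Dox, at 280 CPM against 346 in EEC-like cells.

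In the other named classes the genes stood lower, except for Clps in the EEC-like cells of -Dox. Cells of all other named classes together held 3.8% (Defa26) to 9.5% (Itln1) of the Paneth-like level at most, and 1.5% to 3.3% of the level of cluster 10. Enterocyte-like cells held medians of 2.9% to 4.4% of the level of Paneth-like and goblet-like cells joined, or 1.4% to 3.1% with called doublets removed. Defa24 in enterocyte-like cells stood at 702 and 2126 CPM in -EIPA, 1337 and 3887 in +EIPA, 791 in -Dox and 2252 in +Dox, so that it was lowest and highest in the same libraries as in Paneth-like cells. One unnamed cluster stood between. Cluster 17 (1571 cells, median depth 3869 UMIs) was led by Lars2, Gm42418 and AY036118 and by the goblet genes Muc2 and Fcgbp, and entered neither class. It held Defa24 at 4325 to 19238 CPM and Lyz1 at 961 to 9367 CPM over the libraries. Its highest Defa24 value, in +Dox, exceeded the lowest of cluster 5, in -EIPA replicate 1. Within each library, however, Defa24 was lower in cluster 17 than in cluster 5. Cells with 5% or more of their UMIs from the 8 genes were 27.9% of cluster 17, and 51.6% of its cells in +Dox, and the cluster held 9.71% of all cells between 5% and 20%.

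The level relative to the joined cells differed between classes and genes. Clps in enteroendocrine (EEC)-like cells had a median of 28.6% of the joined level, or 35.4% without doublets, with 257 and 264 CPM in -EIPA, 273 and 311 in +EIPA, 346 in -Dox and 550 in +Dox. These values changed less between libraries than those of Clps in Paneth-like cells, which ran from 280 to 870 CPM and in -Dox lay below the EEC-like value. The genes other than Clps had medians of 4.0% (Defa26) to 9.5% (Lyz1) in EEC-like cells. In tuft-like cells the medians of the 8 ran from 3.4% for Ang4 to 9.0% for Defa24. Itln1 in ISC-like cells had a median of 6.0%, and the other genes there 1.6% to 2.9%. In the barcodes left out for having under 1000 genes, Clps stood at 50.4 to 251 CPM, Defa24 at 2626 to 14655 CPM and Itln1 at 1118 to 6175 CPM over the libraries. The origin of these differences between classes was not tested.

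Detection per cell separated the classes for some of the 8 genes more than for others. With cells thinned to 2000 UMIs, Defa24 was found in 67.5% to 97.5% of Paneth-like cells over the libraries but also in 52.8% to 88.2% of enterocyte-like cells. Unthinned, the shares were 97.1% to 100% and 94.8% to 100%, with median depths of 10251 to 14477 UMIs in Paneth-like and 10835 to 16906 UMIs in enterocyte-like cells. For Ang4 the thinned shares were 13.8% to 44.8% against 2.98% to 15.0%. The ranges did not overlap for Lyz1 (63.8% to 93.5% against 15.7% to 51.8%), Itln1 (72.2% to 97.0% against 32.7% to 55.5%), Mmp7 (26.8% to 65.2% against 3.29% to 9.41%), Clps (23.8% to 57.6% against 1.61% to 7.46%) or Defa26 (11.3% to 30.2% against 0.867% to 3.28%), but did for Defa17, Defa24 and Ang4. The ranges span treated and untreated libraries. The share of all genes that separate these classes in this way was not counted, so no weight is put on the number of members that do. All 8 genes were found together in 39.0% of thinned cells in cluster 23, 28.1% in cluster 10 and 7.0% in cluster 5, and in 0.156% of enterocyte-like cells.

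Together the 8 genes made up 0.67% and 1.16% of all UMIs in -EIPA, 0.93% and 2.28% in +EIPA, 0.67% in -Dox and 2.25% in +Dox. Within Paneth-like and goblet-like cells joined the share was 6.27% and 8.19%, 7.68% and 12.8%, 6.16% and 12.2%. The agent-treated library of each pair was the higher one on both measures. Cells of cluster 5 spread widely, with 40.7% of them under 1% of UMIs from the 8 genes and 9.52% at 20% or more. Of the 2232 cells at 20% or more, 64.6% lay in cluster 10, 24.9% in cluster 5 and 6.41% in cluster 23.

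Within cluster 5 the per-cell share was higher in the treated library of each pair. Cells at 5% or more were 13.9% of -EIPA and 27.6% of +EIPA in experiment 1, 29.4% and 51.5% in experiment 2, and 21% of -Dox and 61.4% of +Dox. The medians in cluster 5 were 0.395% and 1.27%, 1.11% and 5.48%, 0.593% and 7.44%. In cluster 10 they were 12.5% and 15.4%, 15.2% and 21.5%, 10.0% and 19.2%, and in cluster 23 19.8% and 21.7%, 22.5% and 20.5%, 18.3% and 22.2%. In each of the 3 pairs the ratio of the medians was larger in cluster 5 than in cluster 10, whereas the difference in percentage points was larger in cluster 10, and cluster 23 had no common direction. Cells are not replicates, and these shares carry no test.

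**Figure D2:**
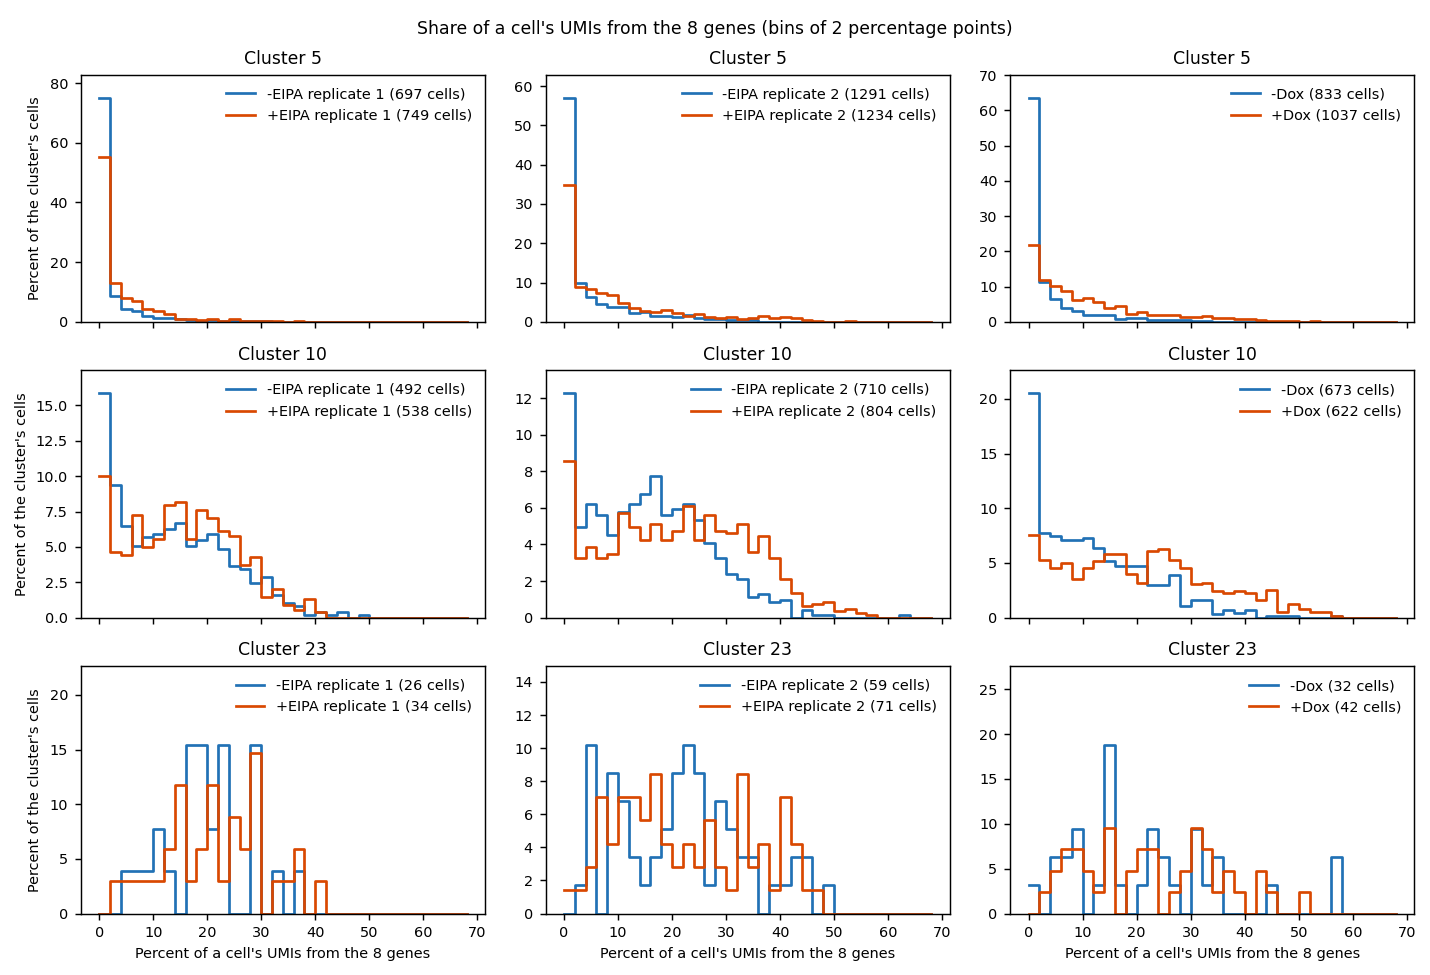
Share of each cell's UMIs that came from the 8 genes (percent, horizontal axis) for each pair of libraries, as the percent of a cluster's cells in each bin of 2 percentage points, in clusters 5, 10 and 23. The bars of cluster 5 pile up in the lowest bin, less so in +EIPA and +Dox than in the paired library, while the 26 to 71 cells of cluster 23 spread around a median of 18.3% to 22.5%.

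Inside single clusters the 8 genes went up and down together. Over cells of cluster 5, the median correlation of Defa17 with Defa24 over the libraries was 0.83 (Pearson's r of log levels), and in cluster 10 it was 0.84. Ang4 was the least tied, with a mean r to the others of 0.377 to 0.509 in cluster 5 and 0.382 to 0.523 in cluster 10. Points in these correlations share a library and differ in depth, and the Defa17 value shares reads with its family. Over 42 sums of 7 named classes and 6 libraries, the non-members closest to the mean of the 8 were Spink4 (r = 0.988), Habp2 (0.985), Tpsg1 (0.975), Tff3 (0.972) and Muc2 (0.970), of 10311 genes. The other 5 of the closest 10 were Ccl6, Ccl9, Spdef, Ramp1 and Fcgbp, and 8 of the 10 were goblet markers. The classes were named with these same marker lists, and the order of Paneth-like and goblet-like cells depended on the genes used to cluster. This closeness is therefore in part set by how the classes were drawn and is given as a description.

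The question put to the EIPA libraries was whether the inhibitor changes these products within a class of cells. In Paneth-like cells all 8 genes were higher in +EIPA than in -EIPA within each experiment, by 0.45 to 1.11 on the log2 scale of the CPM ratio. Ang4 stood at 300 and 386 CPM in -EIPA and 502 and 835 in +EIPA, Mmp7 at 346 and 502 against 652 and 885, and Defa26 at 138 and 171 against 239 and 346. For these 3 of 8 genes the groups did not overlap, as for 9.7% of the 11891 gene symbols tested, counting those with both +EIPA libraries above both -EIPA libraries. Cluster 5 supplied 697 of 723 and 1291 of 1350 of the cells in -EIPA and 749 of 783 and 1234 of 1305 in +EIPA. The sums thus moved alongside the share of cluster 5 cells at 5% or more given above, and more high cells in the class cannot be told apart from more RNA per cell in them.

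The other 5 overlapped across experiments. Lyz1 stood at 3082 and 4978 CPM against 4556 and 7300, Itln1 at 5012 and 7549 against 7310 and 10328, and Clps at 322 and 585 against 455 and 870. Defa24 overlapped as well, with the values above. Defa17 differed more between experiments than between -EIPA and +EIPA, at 460 and 8168 CPM in -EIPA and 788 and 16232 in +EIPA.

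Taken as 2 libraries against 2, none of the 8 passed. With Benjamini-Hochberg adjustment, edgeR's quasi-likelihood test called none of the 8 at a threshold of 0.05 (0 of 8), the adjusted p running from 0.379 (Defa26) to 0.957 (Defa17), and 1 of 11892 genes in all (0.00841%), Gm3776, named here after its values were seen. At an unadjusted p under 0.05 there were 791 genes, and DESeq2 called 52, none of them among the 8. Same-numbered libraries come from 1 experiment, and with that replicate block edgeR called 8 of 8 higher, against 4.68% of all genes called higher and 2.50% lower. Under the block Ang4 was higher by 1.02 ± 0.062 (log2 fold change ± SE, Benjamini-Hochberg adjusted p = 5.1e-57), Defa26 by 1.00 ± 0.067 (1.3e-47) and Defa24 by 0.97 ± 0.068 (3.2e-43). Defa17 (0.98 ± 0.065) and Mmp7 (0.96 ± 0.062) were of like size, and Lyz1 (0.65 ± 0.063), Clps (0.63 ± 0.062) and Itln1 (0.59 ± 0.064) were smaller. The blocked fit has 1 residual degree of freedom, so its very small p rest on a spread shared across genes rather than on replicates of 1 gene.

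In cluster 5 alone the blocked call held for 8 of 8 genes (log2 fold change 0.69 to 1.38, background 5.02% called higher), and in cluster 23 for Defa24 alone (0.30, background 0.298%), where 5 of 8 were higher and the median was 0.10. With alpha-defensins allowed in clustering it held for Defa17, Defa24, Mmp7 and Ang4 (0.36 to 0.42, background 1.88%). With the Harmony correction, which left 26 to 77 Paneth-like cells per library, Itln1 was lower by 0.34 (edgeR with the block, Benjamini-Hochberg adjusted p = 0.000702, background 0.186% called lower) and the other 7 were not called. In that setting 1 of the 8 was higher and the median was -0.09, against 0.96 in the reported classes. At a Leiden resolution of 1.2, with 25 to 71 Paneth-like cells per library, Defa24 alone was called (0.30, background 0.3%), 5 of 8 were higher and the median was 0.09. With Paneth-like and goblet-like cells joined, 7 of 8 were called and Clps was not, with a median of 0.59 (background 3.6%). Removing called doublets kept 8 of 8 (0.71 to 1.17, background 4.61%). Without the filter on low counts, the unblocked test also called 8 of 8 (background 1.27%), and without +EIPA replicate 1 (background 0.297%) it called Defa26 (1.30, Benjamini-Hochberg adjusted p = 0.017) and Ang4 (1.42, adjusted p = 0.015). The unblocked median of the 8, 0.98 over all 4 libraries, was 0.48 without -EIPA replicate 1 and 0.30 without +EIPA replicate 2, where Defa17 was at -2.44 and the other 7 were higher. It was 1.24 without -EIPA replicate 2 and 1.25 without +EIPA replicate 1.

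**Figure D3:**
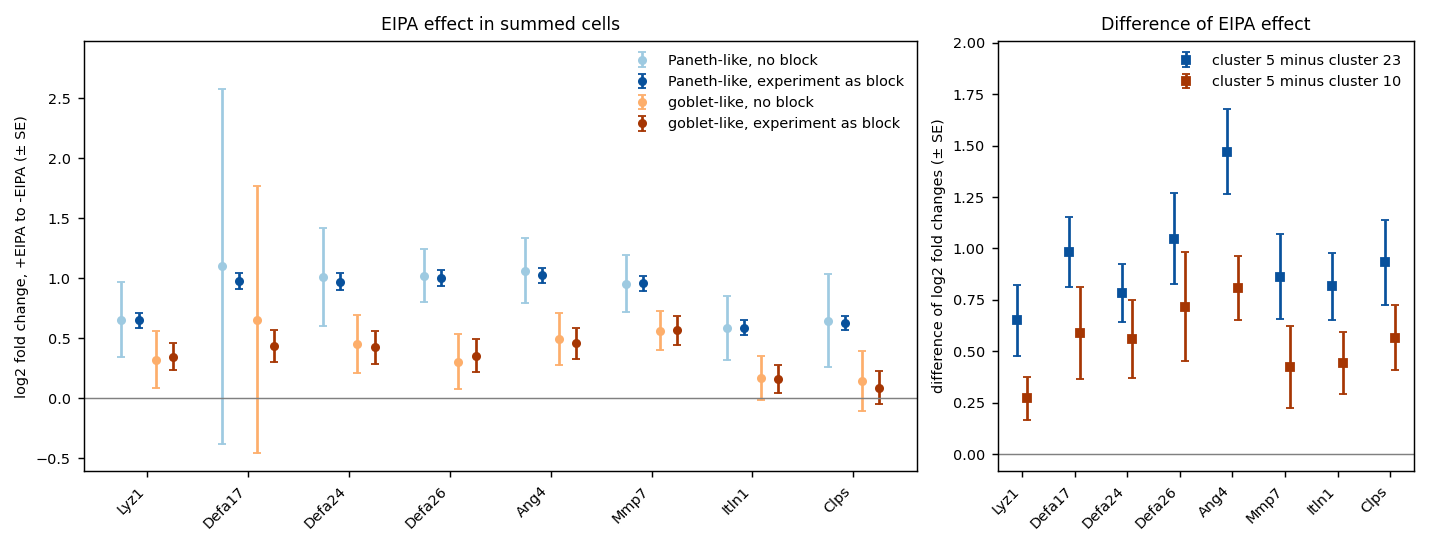
Log2 fold change of +EIPA against -EIPA for the 8 genes from edgeR, in the unblocked and the blocked fit, in Paneth-like and goblet-like cells (left), and the difference of that effect between cluster 5 and clusters 23 and 10 (right), all with bars of 1 SE. In Paneth-like cells the estimates lie between 0.58 and 1.10 in both fits and the block shortens the bars, most of all for Defa17.

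Markers of some other types moved with these values, and 4.68% of all genes were called higher in the same fit. The summed enterocyte markers in Paneth-like cells stood at 1877 and 1304 CPM in -EIPA and 2704 and 2141 in +EIPA. In enterocyte-like cells they stood at 32521 to 68163 CPM over the 6 libraries. In Paneth-like cells 16 of 21 enterocyte markers were called higher under the block. Their median log2 fold change in that fit was 1.01, against 0.96 for the 8 genes. The goblet list summed to 18504 and 20464 CPM in -EIPA and 22005 and 30494 in +EIPA, with 13 of 22 called. Of the ISC markers 6 of 15 were called higher, and of the EEC markers 5 of 19 higher and 1 lower. Of 20 proliferation markers 1 was called higher and 1 lower (median -0.07), and of 10 tuft markers none was called (median 0.09). The part of these lists in the result was not tested.

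In goblet-like cells neither fit called any of the 8 genes. Without the filter on low counts the unblocked edgeR test called Defa17 (0.66), Defa24 (0.45) and Mmp7 (0.56), with Benjamini-Hochberg adjusted p from 0.000134 to 0.017 and a background of 0.902%. The unblocked edgeR test called 0 of 11131 genes (0%), with 522 at an unadjusted p under 0.05 and 30 by DESeq2, and the blocked one called 0.827% higher and 0.108% lower. Defa24 was at 78966 and 79179 CPM in -EIPA and at 87398 and 111987 in +EIPA, a difference of 0.42 ± 0.138 under the block (edgeR, Benjamini-Hochberg adjusted p = 0.317). Mmp7, the defensin-processing enzyme, came closest, at 1729 and 1381 against 2132 and 2138 CPM (0.57 ± 0.119, adjusted p = 0.053). In cluster 10 alone the blocked test called Mmp7 (0.67, Benjamini-Hochberg adjusted p = 0.038, background 0.266%). The class border mattered here too. The goblet-like name covered 1250 to 2315 cells per WT library under Harmony and 1240 to 2188 at a resolution of 1.2. The reported class held 545 to 960, and both classes joined 1268 to 2265. With alpha-defensins allowed the name took in 4811 of the 5841 cells of cluster 5. The blocked medians under Harmony and at 1.2 were 0.56 and 0.61, against 0.59 for the classes joined. The block called 8 of 8 in goblet-like cells under Harmony (background 4.66%), 7 of 8 at a resolution of 1.2 (background 3.12%) and 6 of 8 with alpha-defensins allowed (background 2.87%). It called 3 of 8 in cluster 21 alone (background 1.11%), 2 of 8 under strict limits on cells (background 1.52%) and 1 of 8 with called doublets removed (background 1.4%). Enterocyte markers in goblet-like cells summed to 2155 and 1366 CPM in -EIPA and 2991 and 3124 in +EIPA, with 10 of 22 called higher under the block. Their median log2 fold change in that fit was 1.08, against 0.39 for the 8 genes, and their part was not tested.

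Whether EIPA acted differently on the 2 classes was tested as the class by EIPA term with the library as a term. It called 10 of 11781 genes (0.0849%), of which Ang4 was a member, with an effect larger by 0.57 ± 0.103 in Paneth-like cells (edgeR, Benjamini-Hochberg adjusted p = 0.0429). The other 7 lay between 0.32 and 0.65 and were not called. Between clusters 5 and 23 the term called 26 of 11103 genes (0.234%) and 7 of the 8. Ang4 had the largest difference (1.47 ± 0.207, edgeR, adjusted p = 3.3e-09), and Lyz1 was not called (0.65 ± 0.173, adjusted p = 0.063). Cluster 23 held 26 to 71 cells per WT library. As in the blocked fit, these p rest on a spread shared across genes rather than on replicates of 1 gene. Between clusters 5 and 10 Ang4 alone of the 8 was called (0.81 ± 0.155, adjusted p = 0.0385, background 0.0938%). The Ang4 difference between classes was lost without -EIPA replicate 1 (0.43, Benjamini-Hochberg adjusted p = 0.572), without +EIPA replicate 2 (0.47, 0.483), with called doublets removed (0.54, 0.254) and with library size scaling (0.57, 0.167). Without -EIPA replicate 2 (background 0.291%) or +EIPA replicate 1 (0.732%) the term called 7 of the 8, and without the filter on low counts all 8 (0.391%). In other clusterings the class names cover other cells. Under Harmony the Paneth-like class held 26 to 77 cells per WT library and the goblet-like class 1250 to 2315. With alpha-defensins allowed the classes held 222 to 615 and 1037 to 1697 cells, against 723 to 1350 and 545 to 960 as reported. Between the classes so redrawn, all 8 differences turned to the other sign. They ran from -0.86 to -0.46 under Harmony, where Ang4 was called (-0.86, edgeR, Benjamini-Hochberg adjusted p = 0.0041, background 0.0939% called lower), and from -0.38 to -0.10 with alpha-defensins allowed, where none was called.

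**Figure D4:**
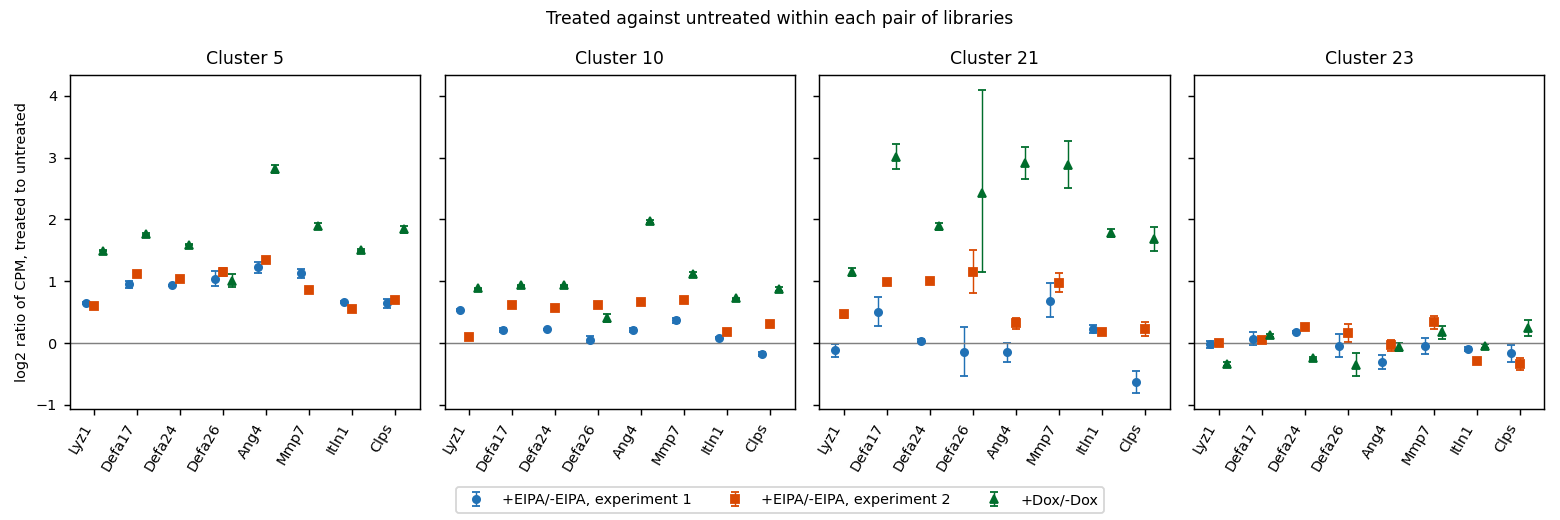
Log2 ratio of the treated to the untreated library for the 8 genes in clusters 5, 23, 10 and 21, with 1 point for experiment 1, experiment 2 and the CRISPR pair and bars for the 95% counting interval. All points of cluster 5 lie above 0, and those of cluster 23 lie between -0.35 and 0.34.

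In the cells of the other classes the 8 genes stood at a far lower level, and 2 of them passed the blocked test. The log2 ratio of +EIPA to -EIPA for Defa24 was 1.00 in experiment 1 and 1.03 in experiment 2, against 0.80 and 0.96 in Paneth-like cells, and for Dox it was 1.93 against 1.33. With called doublets removed the unblocked fold change of Defa24 in these cells went from 1.12 to 0.77, and the median of the 8 from 0.94 to 0.62, whereas the Paneth-like median was 1.02. The median in these cells was 0.37 without -EIPA replicate 1 and 0.14 without +EIPA replicate 2, where Defa24 was at 0.25 and Defa17 at -1.90. It was 1.50 without -EIPA replicate 2 and 1.39 without +EIPA replicate 1. The ratios of Itln1 were 0.06 and -0.06 for EIPA and 1.16 for Dox. The unblocked edgeR test called 0 of 15361 genes in these cells (0%, 1398 at an unadjusted p under 0.05, 500 by DESeq2), and the blocked one called Defa24 (1.10, Benjamini-Hochberg adjusted p = 0.0319) and Mmp7 (0.97, 0.0451) with 0.0586% of all genes called higher, while the other 6 did not pass (adjusted p from 0.0589 to 0.4). Over all cells kept, the blocked test called Lyz1 (0.74, Benjamini-Hochberg adjusted p = 0.0125), Mmp7 (0.95, 0.029) and Defa24 (0.89, 0.0466) against 4.47% of all genes. In such sums over all cells, more cells of a type and more RNA per cell cannot be told apart. The unblocked test there called 0 of 15890 (1601 at an unadjusted p under 0.05), and DESeq2 called 587 (519 higher, 3.27%), with Defa26 and Mmp7 among them.

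The share of kept cells with the Paneth-like name was 5.74% and 7.41% in -EIPA and 5.93% and 9.15% in +EIPA, ratios of 1.03 and 1.23 within the experiments. The goblet-like share was 4.32% and 4.32% against 4.65% and 6.73%, with ratios of 1.07 and 1.56. In the CRISPR pair the shares were 4.92% and 8.93% for Paneth-like and 4.34% and 6.44% for goblet-like cells. The shares were not tested, and the GFP gate touches the last pair.

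With Dox, 7 of the 8 genes were at least 2-fold higher in Paneth-like cells, against 0.513% of the 9545 genes with 50 or more UMIs in both libraries. There was 1 library per group and no test, and intervals cover counting error only. Ang4 went from 407 CPM (95% exact Poisson interval 396 to 419) to 1532 (1516 to 1549), a log2 ratio of 1.91. Mmp7 went from 388 CPM to 1207 (1.64), Clps from 280 to 861 (1.62) and Defa17 from 4664 to 12974 (1.48). Defa24 (1.33), Itln1 (1.33) and Lyz1 (1.28) followed, and Defa26, from 114 to 189 CPM (0.72), was the one below 2-fold. The median over the 8 genes was 1.40 and over all those genes -0.12. In cluster 5 alone it was 1.67, with alpha-defensins allowed in clustering 0.57, in cluster 23 alone -0.06 and under Harmony -0.086, where Lyz1, Defa24, Defa26, Ang4 and Itln1 were lower in +Dox. Enterocyte markers in Paneth-like cells summed to 2369 CPM in -Dox and 3472 in +Dox, with 5 of 17 at least 2-fold higher, and their part was not tested.

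In goblet-like cells the log2 Dox ratios were 0.28 to 1.02 for 7 of the 8 genes, each below its Paneth-like value. That of Ang4 was 1.86, from 1634 to 5932 CPM, against 1.91 in Paneth-like cells. Ang4 thus had the largest Dox ratio in both classes, and in cells of the other classes as well (2.76). The order of the classes did not hold over their clusters. The Dox ratios ran from 1.01 to 2.82 in cluster 5 and from -0.35 to 0.25 in cluster 23. They ran from 0.41 to 1.97 in cluster 10 and from 1.15 to 3.01 in cluster 21, where 6 of the 8 lay above cluster 5. The -Dox values of cluster 21 came from 91 cells and were in part near background. The other classes held 73.5% of its Defa17 level, 48.5% of Defa26, 25.2% of Itln1, 21.2% of Mmp7 and, at least, 5.4% (Clps). Defa26 stood there at 5.48 CPM, and its fold had a 95% counting interval of 2.2 to 17.1.

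The other alpha-defensins were followed as the closest relatives, in Paneth-like and goblet-like cells joined. They divided by experiment and by line. Defa24 stood at 40498 and 45071 CPM in -EIPA, 50299 and 75428 in +EIPA, 30202 in -Dox and 59806 in +Dox. Defa17 stood at 1287 and 13280, 1570 and 22679, 7762 and 16208 CPM, so that experiment 2 was 10.3 times experiment 1 without EIPA and 14.4 times with it, against 1.11 and 1.50 times for Defa24. As a share of Defa24 in cluster 5, Defa17 was 2.87% and 2.90% in the experiment 1 libraries and 25.8% to 30.2% in the other 4. In cluster 23 the CRISPR pair stood at 31.4% and 40.6%, and in cluster 21 at 6.59% and 14.4%, so the share also differed between clusters and within that pair.

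Some relatives went the other way. Those named here were chosen after their values were seen. Defa27 stood at 59.4 and 0.812 CPM in -EIPA, 105 and 1.94 in +EIPA, 0.0986 (2 UMIs) in -Dox and 0 in +Dox, where a count of 0 allows up to 0.0859 CPM. AY761184 stood at 1155 and 1074, 1606 and 1343, 105 and 18.6 CPM, low in both CRISPR libraries. Defa29 was at 180 and 83.4, 219 and 177 CPM in WT, at 4.09 in -Dox and at 0 in +Dox. Defa20 and Gm7861 followed Defa17 across the experiments, Gm7861 with 47.5 and 490, 58.9 and 727 CPM in WT and 9.32 and 8.36 in the CRISPR pair. Near-identical copies limit these readings, since 99.5% of the 3' windows of Defa20 and 91.4% of those of Gm7861 were shared with other members of the family, but none of those of AY761184 and Defa29. What separates the libraries (the organoid stock, the animal or the preparation) was not tested.

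**Figure D5:**
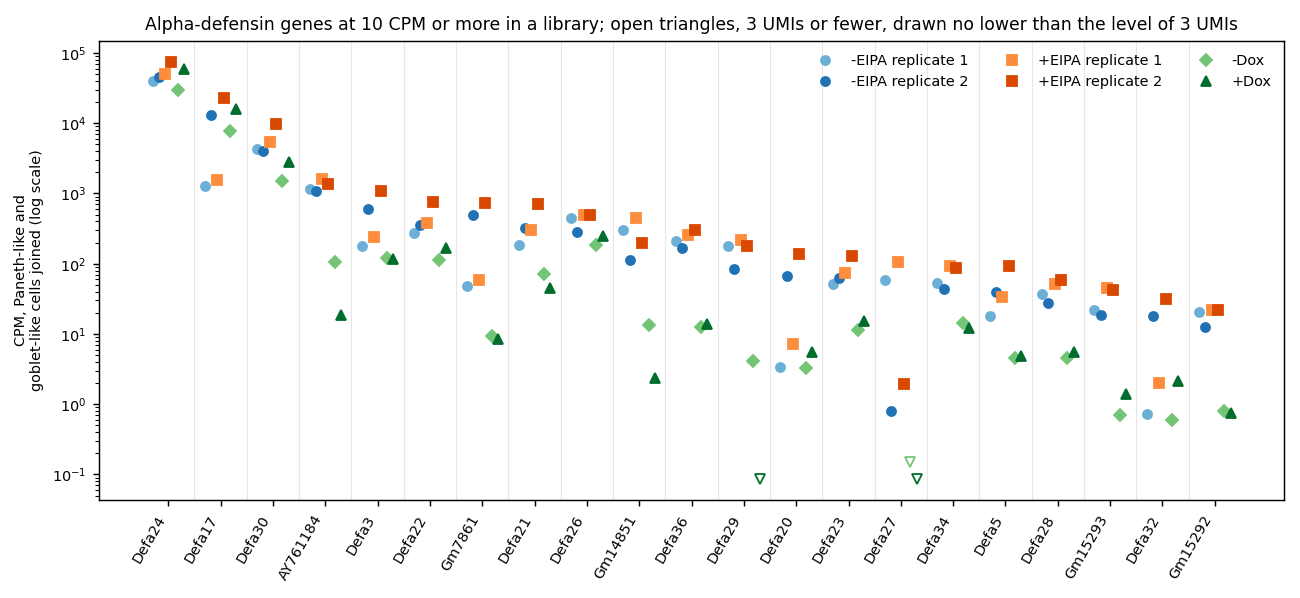
Level of alpha-defensin genes (CPM, log axis) in Paneth-like and goblet-like cells joined, with 1 point per library and open triangles at the level of 3 UMIs for counts of 3 or fewer. Defa17 and Defa20 are higher in experiment 2 and Defa27 in experiment 1, while AY761184 and Defa29 are low in both CRISPR libraries.

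Most relatives were also higher with EIPA under the block. In Paneth-like cells the blocked edgeR test called 19 of 20 tested other alpha-defensins higher and 0 lower, against 4.68% and 2.50% of all genes, with a median log2 fold change of 1.45 against 0.00 over all genes, and Defa22 (1.82), Defa21 (1.57) and Defa30 (1.46) had the smallest p. The unblocked test called none. Many of these genes share reads, so they do not count as 20 separate genes. Of 14 other antimicrobial genes tested, 7 were called higher and 2 lower under the block (median 0.23), with the lectins Zg16 (1.57), Reg3b (1.61), Reg3a (1.34) and Reg4 (1.08), the peptidoglycan-binding Pglyrp1 (0.25), Sprr2a3 (0.53) and the Ang4 relative Ang (0.21) higher, and the polymeric immunoglobulin receptor Pigr (-0.43) and Dmbt1 (-0.38) lower. In goblet-like cells the counts called higher were 5 of 20 and 1 of 14, against 0.827% of all genes.

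Genes that make, sense or direct these products are read against the same shares of all genes, 4.68% called higher and 2.50% lower. Of 15 tested genes of prodefensin processing, granules and bacterial sensing, 3 were called higher under the block in Paneth-like cells (Spink4 0.75, Ern1 0.48, Agr2 0.25) and none lower, with a median of 0.01. Among the lipase partners of colipase Pnliprp2 was called (0.52) of 3 tested. Of 12 niche and Wnt-dependent genes 2 were higher (Cd44 0.52, Ephb3 0.34) and 2 lower (the Notch ligand Dll1 -0.56, the Wnt receptor Fzd5 -0.35). Of 12 secretory transcription factors 2 were higher (Bhlha15 0.51, Nupr1 0.41) and 3 lower (Klf4 -0.62, Foxa2 -0.30, Foxa1 -0.27). The unblocked test called none in any of these lists.

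With Dox, 2 of 13 other alpha-defensins with enough UMIs were at least 2-fold higher in Paneth-like cells, against 0.513% of all genes, and 2 at least 2-fold lower, against 0.409%, Gm14851 (from 16.4 to 3.49 CPM, -2.23) and AY761184 (from 87.7 to 24.4 CPM, -1.85), with a median of 0.27 where that of the members was 1.40. With EIPA the same genes were called higher under the block, Gm14851 by 1.29 and AY761184 by 0.88. The difference between EIPA and Dox was not tested, since the CRISPR pair has no replicate.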

How the data were processed

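Droplet 3' libraries were made with 10x Genomics chemistry. The authors counted UMIs per gene and barcode with Cell Ranger 6.1.2 on mm10 and deposited whole-number counts, not normalized, for barcodes taken as cells. A barcode was kept at 1000 or more genes if mitochondrial UMIs stayed below 20%. Kept cells were clustered in Python 3.11.15 with scikit-learn 1.9.0 for neighbours and the Leiden method of igraph. Pearson residuals per library (overdispersion 100, 3000 variable genes without the 8 members and alpha-defensins) gave 45 principal components, a shared-neighbour graph (20 neighbours) and Leiden clusters at a resolution of 0.8. The components of the reported clustering were not corrected for library. On average 51.6% of a cell's neighbours came from its own library, against 27.3% with the Harmony correction, so class borders may in part follow the library. Clusters took an X-like name only where their leading genes held markers from the lists. Doublets were called with Scrublet at 0.8% per 1000 cells, because its own threshold marked too few, and were kept in the reported values.

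Counts were summed per library and class. The -EIPA and +EIPA libraries entered the quasi-likelihood test of edgeR 4.0.16 (R 4.3.3) after TMM scaling and filterByExpr, with p adjusted by Benjamini-Hochberg across every tested gene and a threshold of 0.05, and DESeq2 1.42.0 served as an alternative. All 8 genes passed the filter in each comparison. CPM are counts scaled to the class total of a library. Kept libraries held 161670015 to 239368573 UMIs. PCR duplicates are merged by UMI, and intervals and the limit that a count of 0 allows (3 counts) cover counting error only. The fits were tested on simulated counts, and the outcome is not given here. The gene edited in the CRISPR libraries is not reported here.

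The study's source data pair replicate 1 with replicate 1 and 2 with 2 as experiments. The deviations from the group mean of 2 libraries with 1 number had a correlation of 0.569 in Paneth-like, 0.412 in goblet-like and 0.675 in the other classes, and the blocked value is given where it changes a call. p-values rest on the spread between these libraries, which edgeR shares across genes in part and, in some fits, wholly. Members and lists were chosen with earlier results of these data known. Beside the members, the genes named were the 4 of smallest p among the called genes of each list, or the 3 of highest CPM, the 10 closest in pattern, and for Dox the 2 of largest ratio per list. Where more genes of a list are named, they are all of its called genes.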

Additional observations from a re-analysis of the deposited data

Results flagged for a closer look

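The effect of EIPA differed between Paneth-like and goblet-like cells for 10 genes by the class by EIPA term of edgeR (Benjamini-Hochberg adjusted p from 0.00967 to 0.0429, n = 2 libraries per group). Given as Paneth-like minus goblet-like on the log2 scale, the difference was 0.57 for Ang4, 1.32 for the alpha-defensin Defa27, 1.58 for the trefoil factor Tff2, 1.12 for the gut hormone Cck, 0.42 for Spink4, 0.73 for Apoc2, 1.02 for Hist1h3c and 0.63 for Zg16. It was -1.09 for Emp1 and -0.61 for S100a6. Each of the 10 differences changed sign under Harmony, with alpha-defensins allowed in clustering, or in both, as given below. Fewer genes passed with library size scaling or with called doublets removed. Apart from Ang4, these genes are named because they passed the test.

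Between the 2 Paneth-like clusters, the difference of the EIPA effect as cluster 5 minus cluster 23 was 1.47 for Ang4, 0.98 for Defa17, 0.78 for Defa24, 0.82 for Itln1, 1.05 for Defa26, 0.93 for Clps and 0.86 for Mmp7 (edgeR, Benjamini-Hochberg adjusted p from 3.3e-09 to 0.0168). Cluster 5 minus cluster 10 gave 0.81 for Ang4. The comparisons of single clusters were added after the data had been seen. No group here held 4 or more libraries, so single libraries were not screened for standing apart.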

How the results depend on the processing

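The WT groups held 2 libraries and the CRISPR groups 1, and no alternative varied the depth. The count of genes called with EIPA moved most. In Paneth-like cells it was 1, and 854 with the replicate block, 52 with DESeq2, 13 with library size scaling, 286 without the filter on low counts, 8 to 45 with 1 library left out, 4 at a resolution of 1.2, 6 with Harmony, 11 with alpha-defensins allowed in clustering, 6 with strict limits on cells, 4 in cluster 23 and 0 with goblet-like cells joined. In goblet-like cells it was 0, and 104 with the block, 30 with DESeq2, 3 with library size scaling, 175 without the filter, 0 to 64 with 1 library left out, 19 with strict limits and 12 in cluster 21. In the other classes it was 0, and 11, 500 and 219 with the block, DESeq2 and no filter, and 0 to 266 with 1 library left out (266 without -EIPA replicate 1). Over all cells it was 0, and 839, 587, 198 and 0 to 137 in the same order. The count of genes whose effect differed between the classes was 10, and 1 with library size scaling, 98 without the filter, 1 with doublets removed and 2 to 149 with 1 library left out (149 without +EIPA replicate 1).

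The ratio of the Paneth-like share (1.13) was 1.41 at a resolution of 1.2, 1.57 with Harmony and 1.56 with alpha-defensins allowed. The median Dox log2 ratio of the 8 genes (1.40) was -0.086 with Harmony, 1.25 with doublets removed, 1.49 when scaled without members and alpha-defensins, 1.67 in cluster 5, -0.058 in cluster 23, 1.01 with goblet-like cells joined and 0.57 with alpha-defensins allowed. Under Harmony and in cluster 23 it was reversed for Lyz1 (-0.27 and -0.34), Defa24 (-0.21 and -0.25), Defa26 (-0.35 and -0.35, and -0.066 with alpha-defensins allowed), Ang4 (-0.11 and -0.063) and Itln1 (-0.058 and -0.053).

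The difference of EIPA effect between the classes was reversed under Harmony and with alpha-defensins allowed, in that order, for Ang4 (-0.86, -0.11), Apoc2 (-0.84, -0.00100), Cck (-0.79, -1.36), Emp1 (0.78, 0.19), Hist1h3c (-0.34, -0.54), S100a6 (0.070, 0.056), Spink4 (-0.69, -0.14) and Zg16 (-1.30, -0.023). It was reversed for Tff2 under Harmony (-0.55), and for AY761184 (-0.51) and Defa27 (-1.59) with alpha-defensins allowed. Both settings redraw the classes, and the cause was not tested. Without +EIPA replicate 2 the unblocked EIPA difference of Defa17 in Paneth-like cells was -2.44. Over the 8 genes, 410 values kept direction and side of the threshold, 42 changed sign with no call in either setting, 47 newly passed the threshold, 4 no longer did, 44 moved and 13 were reversed with a call or, for Dox, with no test. Single clusters, joined classes, the Dox ratio with alpha-defensins allowed, and the block combined with another clustering were added after the data had been seen.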
